A study of Mus musculus with 12 samples.

Results

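The cytosolic ribosomal protein genes were followed by RNA-seq in D2A1 and D2.OR, 2 cell lines from mammary tumors of mice. The members were the protein-coding genes whose symbol is Rpl or Rps with a number and at most 1 of the suffixes a, x, y and l, together with Rplp0, Rplp1, Rplp2 and Rpsa. The rule found 80 of 52550 genes, 31 of the small and 49 of the large ribosomal subunit, and 77 of them had enough reads to be tested. No measured value entered the rule. The lines go back to separate tumors that arose in different mice from the D2 hyperplastic alveolar nodule. D2A1 cells proliferate in 3D and form metastases, whereas D2.OR cells stop dividing in 3D and are used as a model of dormancy. Each line was grown for a week either on plastic (2D) or on top of Matrigel, a basement membrane extract (3D), which gave the 4 groups D2A1 2D, D2A1 3D, D2.OR 2D and D2.OR 3D with 3 libraries each. The methods refer the sequenced cells to a section that gives standard medium for 2D, and elsewhere describe 2D cultures in the medium of the Matrigel assay, so 3D and a change of medium cannot be told apart. Several wells of each line were pooled for RNA. The 3D cells were taken out of the Matrigel with a recovery solution, so 3D and the extraction from the gel cannot be told apart. Each line stands for its whole class, dormant or proliferating, so a difference between the lines is a difference between 2 tumors.

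Ribosomal proteins are built with ribosomal RNA into the small subunit, which reads the mRNA, and the large subunit, which joins amino acids. Their mRNAs are among the most abundant of a growing cell and carry a run of pyrimidines at their start, the TOP tract, through which mTOR and Larp1 set their translation and stability. Since a subunit needs 1 copy of nearly every protein, their mRNAs tend to change together, and cells that stop growing make fewer ribosomes.

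The 12 libraries held 47589611 to 73325069 estimated reads in genes. The replicate number was also the batch and the sequencing lane, and each of the 3 batches held 1 library of every group, so within-batch values are given where a result rests on them. The study describes its repeats in general as biological ones, but the labels do not say how the cultures of these libraries were separated, and p-values measure the spread between the libraries. Library D2.OR 3D replicate 1 had the least ribosomal protein mRNA of the series, and results that rest on it or on batch 1 are given without them. Epithelial markers were scarce in D2A1: the 10 markers summed to 94.5 to 298.7 TPM in the 6 D2A1 libraries and to 433.1 to 1730.0 TPM in the 6 D2.OR libraries, whereas the 5 leukocyte markers reached at most 32.2 TPM and the 3 endothelial markers at most 0.42 TPM. The epithelial sum was lower in 3D than in 2D in every batch of both lines, but it is mostly Krt18 in D2A1, and the median log2 fold change of the 7 epithelial markers tested was 0.21 in D2A1, with 4 of 7 above 0, and -0.80 in D2.OR, with 2 of 7 above 0. The 5 mesenchymal markers summed to 1729 to 3568 TPM in D2A1 and 3585 to 6410 TPM in D2.OR, a sum that Vim and Fn1 dominate, and for D2.OR against D2A1 in 2D their median log2 fold change was -0.05, with 2 of 5 above 0. The part of these markers in the line and culture results was not tested. TPM is the abundance of a gene corrected for its length and scaled to the same total in each library.

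The ribosomal protein mRNAs took up between 10.2% and 15.7% of all transcripts in a library. Their summed TPM came to 12.5% ± 0.521 (SD, n = 3) of the total in D2A1 2D, 14.9% ± 1.35 in D2A1 3D, 13.1% ± 0.44 in D2.OR 2D and 12.1% ± 1.68 in D2.OR 3D. In batches 1, 2 and 3 the share was 11.9%, 12.8% and 12.8% in D2A1 2D, and 13.3%, 15.7% and 15.6% in D2A1 3D. It was 13.6%, 13.1% and 12.7% in D2.OR 2D, and 10.2%, 12.6% and 13.4% in D2.OR 3D. The D2A1 3D share was thus above the D2A1 2D share in every batch, whereas in D2.OR the 3D share was below the 2D share in batches 1 and 2 and above it in batch 3. In bulk samples, fewer cells of a type and less RNA per cell cannot be told apart.

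**Figure D1:**
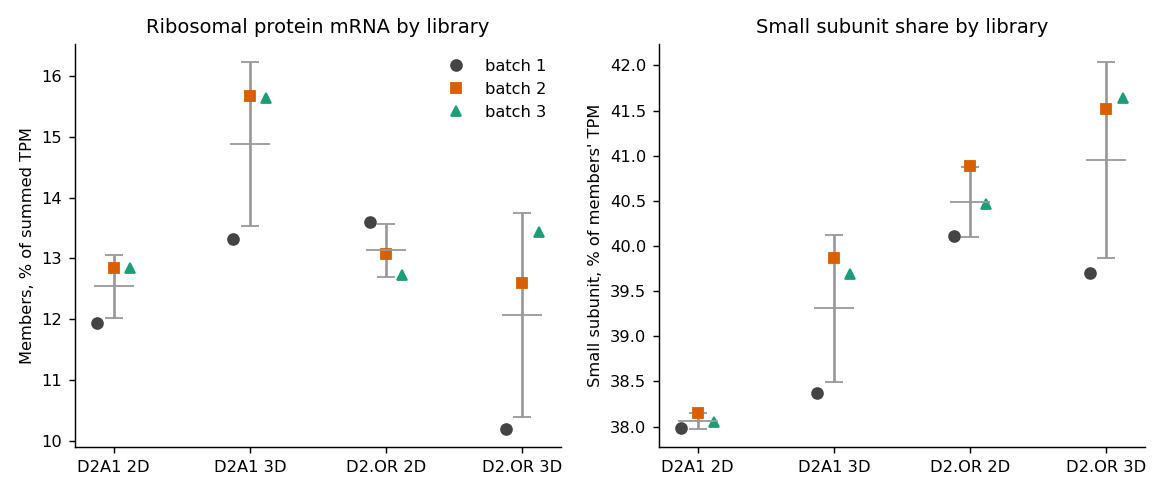
Ribosomal protein mRNA by library. Left, summed TPM of the 80 genes as a percentage of all TPM, and right, the part of that sum from the 31 small subunit genes, each point being 1 library (circle, batch 1; square, batch 2; triangle, batch 3) and the grey bar with whiskers the mean and SD of 3 libraries; both y axes start above 0. On the left D2A1 3D is the highest group and D2.OR 3D replicate 1 the lowest library at 10.2%, and on the right 5 of the 6 D2.OR libraries lie above the D2A1 3D libraries, which span 38.4% to 39.9%.

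Single members differed widely in level, and kept their order across libraries. Among the 77 tested genes, mean TPM over the 12 libraries ran from 176.9 to 4862 with a median of 1594, 68 genes were above 1000 TPM, and 72 of the 80 were among the 200 most abundant genes of the series. As a description, Spearman's rho of the 77 TPM values between 2 libraries was at least 0.846 over the 66 pairs of libraries, which share the gene lengths and the annotation. Among the highest were Rplp1, a stalk protein of the large subunit, at 4862 TPM and Rpl13a at 3202 TPM. The lowest of the 77 were Rpl29 at 176.9 TPM, Rpl26 at 395.1 TPM and Rpl21 at 435.4 TPM, all of the large subunit. Rplp1 had 4379 ± 134.1 TPM (SD, n = 3) in D2A1 2D, 5480 ± 400.2 TPM in D2A1 3D, 4808 ± 221.7 TPM in D2.OR 2D and 4782 ± 542.8 TPM in D2.OR 3D.

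Of the 80 genes, 3 did not pass the filter on low counts, and all 3 are paralogs marked by the suffix l. Rpl10l and Rpl39l, both known from the testis, had no read in any of the 12 libraries. Rpl3l, known from striated muscle, had 0 to 3 reads and at most 0.11 TPM in a library. Their partners Rpl10, Rpl39 and Rpl3 had a mean of 3055, 1403 and 1279 TPM.

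Reads of these genes are shared with processed pseudogenes. The files name 273 pseudogenes after 58 of the 80 members, and their TPM came to 4.63% to 6.07% of the members' TPM in a library. The estimated count was more than 0.001 from a whole number in 67 to 71 members per library, which shows where reads had been split. Of the TPM of a gene and its named pseudogenes together, the pseudogenes held a mean of 66.8% for Rps2, 57.5% for Rpl35a and 40.9% for Rpl30, so the levels of these genes are uncertain. Adding the named pseudogenes to their parents left the number of members called in each comparison within 1 of that given here.

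For 3D against 2D in D2A1, most ribosomal protein genes had fitted values above 0 but few passed the test. Of the 77 genes, 75 had a fitted log2 fold change above 0, beside 50.4% of all 16823 genes tested, and the median was 0.37 (range -0.07 to 0.85) beside 0.00 for all genes. Only Rpl41, Rps29 and Rps26 passed the threshold of an adjusted p below 0.05 in edgeR's quasi-likelihood test, all 3 upward, which is 3 of 77 against a background of 1.37% of all genes. At an unadjusted p below 0.05, 61 of the 77 were higher and none lower, beside 14.8% of all genes higher.

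Rpl41 encodes the smallest ribosomal protein and had the largest fitted rise. Its level in batches 1, 2 and 3 was 2422, 1718 and 1846 TPM in D2A1 2D, and 3034, 3394 and 3386 TPM in D2A1 3D. The 2 groups did not overlap. The log2 fold change was 0.85 ± 0.17 (SE; edgeR adjusted p = 0.0394). Rps29, a small subunit protein, rose by 0.55 ± 0.11 on the log2 scale (edgeR adjusted p = 0.0442). Its level was 1509, 1766 and 1796 TPM in D2A1 2D and 1840, 2476 and 2404 TPM in D2A1 3D. Rps26, a small subunit protein at the channel where mRNA leaves, rose by 0.57 ± 0.13 (edgeR adjusted p = 0.0477), from 920, 884 and 898 TPM to 1110, 1312 and 1286 TPM. All 3 were higher in 3D in every batch, and their 3D libraries of batch 1 were the lowest of the group.

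Rps2, a small subunit protein, and Rpl11, a large subunit protein, had larger fitted values than Rps26 but did not pass the threshold. Rps2 gave 0.68 ± 0.19 (edgeR adjusted p = 0.0662), and its reads are shared with pseudogenes. Rpl11 gave 0.67 ± 0.16 (edgeR adjusted p = 0.0517), with 1348, 1190 and 1185 TPM in 2D and 1528, 1891 and 2025 TPM in 3D. Rpl11 is known, with Rpl5, for binding Mdm2, the ligase that removes p53, when ribosome assembly is disturbed, and Rpl5 gave 0.13 ± 0.12 on the log2 scale (edgeR adjusted p = 0.494). At the other end, Rpl3, a large subunit protein near the peptidyl transferase center, gave -0.07 ± 0.12 (edgeR adjusted p = 0.725), and Rps24 gave 0.12 ± 0.12 (edgeR adjusted p = 0.549).

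The number of D2A1 calls depended on which batches were in the fit. Within batches, the 77 genes had a median log2 CPM difference of 0.20, 0.45 and 0.47 in batches 1, 2 and 3, with 76, 76 and 75 of the 77 above 0. Without replicate 1 of every group 65 members were called, all higher, in a fit that called 36.3% of all genes in either direction, and without replicate 2 or 3 no gene of the table was called. Leaving out only D2A1 2D replicate 1 gave 41 members beside 30.3% of all genes, and leaving out only D2A1 3D replicate 1 gave 20 beside 12.8%. Leaving out D2.OR 2D replicate 1 or D2.OR 3D replicate 1 gave 5, beside 2.71% and 2.08% of all genes. Each of the other 8 libraries gave 0, in fits that called 0.0% to 0.609% of all genes. DESeq2 called 43, all higher, beside 20.9% of all genes. Without the replicate block, or with only the 6 D2A1 libraries in the fit, edgeR called none, beside 0.309% and 0.0981% of all genes.

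The summed TPM of the 10 proliferation markers was 617.2 to 935.8 in D2A1 2D and 1038 to 1667 in D2A1 3D, with batch 1 the lowest of the 3D libraries here too. Their median log2 fold change was 1.02, with 10 of 10 above 0, beside 50.4% of all genes, and none called. Within batches their median was 0.15, 1.41 and 1.69. Their part in the result was not tested.

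**Figure D2:**
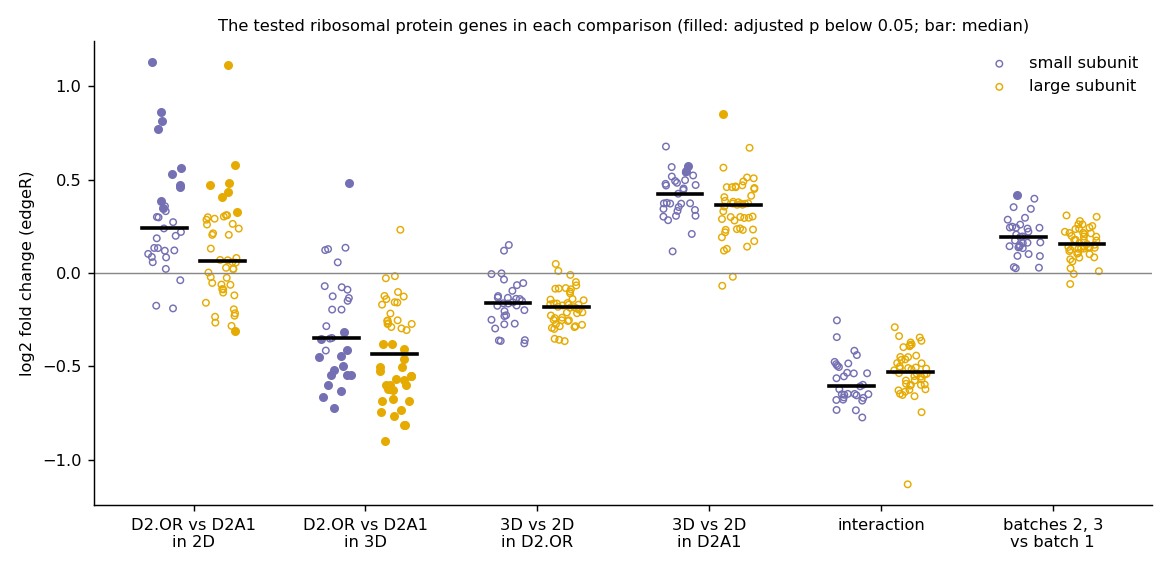
Log2 fold change of the 31 small and 46 large subunit genes tested, in each of 6 comparisons; each point is 1 gene, filled points passed an adjusted p below 0.05 in edgeR's quasi-likelihood test, and black bars are medians. Nearly all genes lie above 0 for 3D against 2D in D2A1 and all 77 lie below 0 for the interaction, while the line difference in 2D straddles 0. Its median of 0.13 falls to -0.03 when libraries are scaled by their totals alone, which lowers the median of all genes as well.

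In D2.OR the ribosomal protein mRNAs were not called in either direction. The median log2 fold change of 3D against 2D was -0.17 (range -0.38 to 0.15), with 73 of 77 genes below 0, and no gene passed the edgeR test, where 1.62% of all genes did. At an unadjusted p below 0.05, 13 of the 77 were lower and none higher, a share of 16.9% against 9.42% of all genes lower. DESeq2 called 2 members, both lower, beside 6.98% of all genes in either direction, so less often than all genes. The lowest fitted value was that of Rps4x, the X-linked small subunit protein, with -0.38 ± 0.13 (edgeR adjusted p = 0.185). The highest were Rps19 with 0.15 ± 0.15, Rps27l with 0.12 ± 0.12 and Rpl37a with 0.05 ± 0.15.

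The D2.OR difference lay in batch 1. There all 77 genes were lower in 3D, with a median of -0.52 on the log2 CPM scale, whereas the median was -0.08 in batch 2 and 0.07 in batch 3. Rps4x read 1876, 1786 and 1711 TPM in D2.OR 2D and 1203, 1451 and 1685 TPM in D2.OR 3D, so that the D2.OR groups differed most in batch 1 and least in batch 3. Without replicate 1 of every group the median over the members was 0.00 (-0.0013). In that fit 1 member was called, higher, beside 8.38% of all genes in either direction. The ratio of the summed TPM in 3D to that in 2D was 0.75, 0.963 and 1.05 in batches 1, 2 and 3. In D2A1 the same ratio was 1.116, 1.219 and 1.219. The 10 proliferation markers had a median log2 fold change of 0.29 in D2.OR, with 10 of 10 above 0 and none called, and within batches 0.34, 0.51 and 0.14. Their part in the result was not tested.

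**Figure D3:**
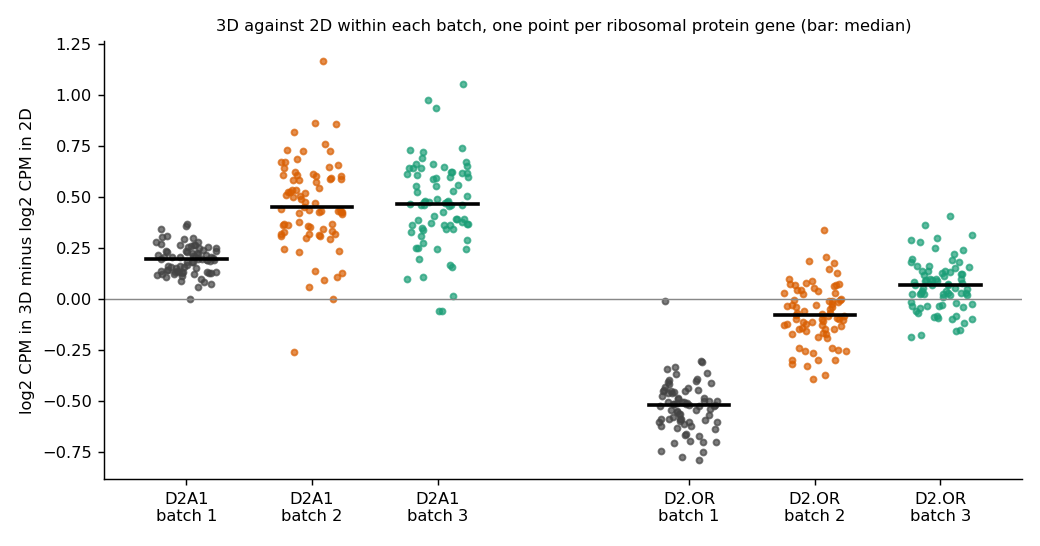
Difference in log2 CPM between 3D and 2D within each batch, for D2A1 (left) and D2.OR (right); each point is 1 of 77 ribosomal protein genes and black bars are medians. The D2A1 medians are 0.20, 0.45 and 0.47, and the D2.OR medians run from -0.52 in batch 1 to 0.07 in batch 3.

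The fitted response to 3D was lower in D2.OR than in D2A1 for each of the 77 genes, although no single gene passed the test. The interaction term, for which the D2A1 log2 fold change of 3D against 2D was subtracted from the D2.OR one, was below 0 in 77 of 77 genes, beside 50.5% of all genes, with a median of -0.54 (range -1.13 to -0.25). Within batches the median was -0.72, -0.54 and -0.40, and all 77 genes were below 0 in each of the 3, as were 20.9% of all genes. The 10 proliferation markers had a median of -0.69 in the interaction, with 9 of 10 below 0 and none called, and within batches 0.21, -0.80 and -1.60. Their part in the result was not tested. The lowest edgeR adjusted p was 0.0988, so none of the 77 was called, where 4 genes of the whole table were, or 0.0238%. At an unadjusted p below 0.05, 66 of the 77 were below 0, which is 85.7% of them beside 8.21% of all genes, and DESeq2 called 20, all below 0, beside 5.61% of all genes in either direction. Without replicate 1 edgeR called 46 (17.8% of all genes), without D2A1 2D replicate 1 it called 31 (14.5%) and without D2A1 3D replicate 1 it called 2 (2.94%), all members below 0. The edgeR test without a filter on low counts called 1, beside 0.322% of all genes.

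Rpl41 had the lowest interaction term, -1.13 ± 0.23 (SE; edgeR adjusted p = 0.0988). Its TPM in batches 1, 2 and 3 was 4211, 3937 and 3699 in D2.OR 2D and 3054, 3547 and 3541 in D2.OR 3D. The D2.OR levels in 3D were thus below those in 2D, and the D2A1 levels in 3D above those in 2D, so that in 3D the 2 lines came to overlapping levels. Rpsa, known also as a laminin-binding protein at the cell surface, gave -0.77 ± 0.24 (edgeR adjusted p = 0.174), with 1764 TPM in D2.OR 3D replicate 1 and 2799 and 3118 TPM in the other 2. Rpl10, an X-linked protein that joins the large subunit late in its assembly, gave -0.74 ± 0.19 (edgeR adjusted p = 0.145). Rps14 gave -0.73 ± 0.15 (edgeR adjusted p = 0.101). The terms nearest to 0 were those of Rps27l with -0.25 ± 0.17, Rpl3 with -0.29 ± 0.16 and Rpl10a with -0.34 ± 0.17. The SD of the 77 interaction terms was 0.13, less than the median standard error of 0.18 of 1 gene, so most members could not be told apart from each other in this term.

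In the comparison of batches, 75 of 77 genes had a fitted log2 fold change above 0 for batches 2 and 3 against batch 1, with a median of 0.16, beside -0.01 for all genes. Rps19, a small subunit protein mutated in Diamond-Blackfan anemia, was the only one called, with 0.42 ± 0.11 (edgeR adjusted p = 0.0400). This is 1.3% of the members, beside 4.8% of all genes called higher. Its TPM in batches 1, 2 and 3 was 979, 1207 and 1175 in D2A1 2D, 1109, 1588 and 1604 in D2A1 3D, 1127, 1362 and 1242 in D2.OR 2D, and 998, 1671 and 1628 in D2.OR 3D. Batch 1 was the lowest in each of the 4 groups. Rpl8 gave 0.30 ± 0.09 (edgeR adjusted p = 0.0523) and Rps29 0.30 ± 0.09 (edgeR adjusted p = 0.0526). DESeq2 called 12 members, all higher, beside 19.9% of all genes in either direction. The count was 18 without D2.OR 2D replicate 1, beside 9.51% of all genes, and 6 without D2A1 2D replicate 1, beside 20.6%. It was 2 without replicate 3 of either 2D group. It was 0 without replicate 2 of either 2D group and without any 1 of the 6 libraries grown in 3D. Among these fits, the members were called more often than all genes only without D2.OR 2D replicate 1.

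Between the lines in 2D, the members went in both directions. Of the 77 genes, 17 were higher in D2.OR than in D2A1 and 1 was lower in edgeR's test, where 25.4% of all genes were higher and 24.4% lower, so that the calls were no more frequent than among all genes. The median log2 fold change was 0.13 (range -0.31 to 1.13), beside -0.003 for all genes, with 57 of 77 above 0. Over the fits with libraries left out it ran from 0.02 to 0.24. The sign of the median depended on the scaling. It was -0.03 with library totals alone, which moved the median of all genes to -0.17, so the members' median still lay above that of all genes. With limma on log2(TPM + 1) it was -0.01. The calls in these fits were 9 higher and 8 lower, and 11 higher and 7 lower, beside 52.3% and 47.2% of all genes in either direction. Within batches the median was 0.29, 0.12 and 0.07.

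The genes at the top of the 2D comparison shared a chromosome. The members on chromosome 10 were Rps12 (chr10:23785183-23787275), Rps15 (chr10:80292453-80294114), Rpl41 (chr10:128548114-128549305) and Rps26 (chr10:128624534-128626747, all GRCm38), and these were the 4 highest of the 77. Rps12, a small subunit protein, read 1486, 1465 and 1557 TPM in D2A1 2D and 3114, 2887 and 2946 TPM in D2.OR 2D, a log2 fold change of 1.13 ± 0.15 (edgeR adjusted p = 0.000278). Rpl41 was 1.11 ± 0.17 higher (edgeR adjusted p = 0.000572). Rps26 was 0.86 ± 0.13 higher (edgeR adjusted p = 0.000552), with 1590, 1468 and 1395 TPM in D2.OR 2D. Rps15 was 0.81 ± 0.14 higher (edgeR adjusted p = 0.00111), with 1554, 1503 and 1625 TPM in D2A1 2D and 2606, 2408 and 2399 TPM in D2.OR 2D. In none of the 4 did the groups overlap, and each was above 0 in every batch. Of all genes, 27.6% lay wholly higher in D2.OR 2D and 34.1% were above 0 in every batch.

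The other genes of chromosome 10 were higher in D2.OR as well. Over 834 tested genes of chromosome 10 that are no members, the median log2 fold change in 2D was 0.55, 78.1% were above 0 and 51.9% were called higher, against 25.4% of all genes. Across the 19 chromosomes that carry a tested member, the median of the members followed the median of the other genes (Pearson's r = 0.844, Spearman's rho = 0.854, n = 19 chromosomes; r = 0.761 without chromosome 10). This is a description of medians from the same libraries and the same fit, and it rests on as few as 1 member on chromosomes 6 and 13. Chromosomes 3, 6, 11 and X, where the other genes had a median of -0.37, -0.31, -0.27 and -0.15, were also the 4 where the members had a median below 0. On chromosomes 1, 2, 4, 5, 9 and 16 the other genes had a median below 0 and the members one above it. Taking the median of the other genes on its chromosome from the value of each member lowered the SD of the 77 log2 fold changes from 0.30 to 0.20, and left a median of 0.16 with 66 of 77 above 0.

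**Figure D4:**
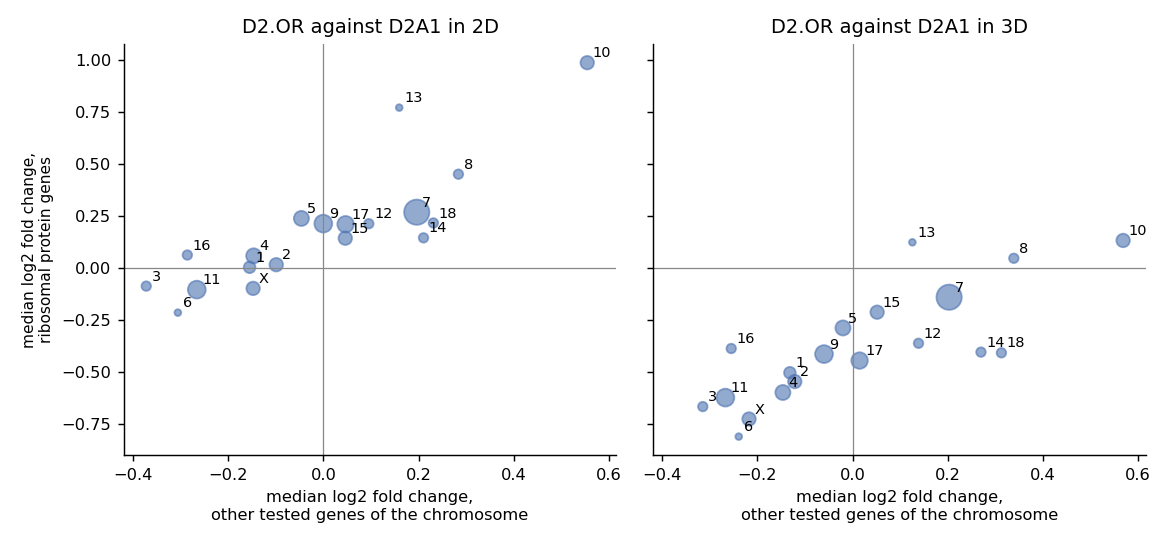
Median log2 fold change of the ribosomal protein genes of a chromosome (y axis) against that of its other tested genes (x axis), in 2D (left) and 3D (right); each circle is 1 of 19 chromosomes, labelled by its name, with an area proportional to the number of ribosomal protein genes (1 to 14). The circles run along a rising band in both panels, with chromosome 10 at the right end, and the band lies lower in 3D.

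At the lower end of the 2D comparison, Rpl34 on chromosome 3 was the only member called lower, with -0.31 ± 0.12 (edgeR adjusted p = 0.0496). Its level was 2917, 3561 and 3516 TPM in D2A1 2D and 2479, 2393 and 2347 TPM in D2.OR 2D. The call was lost in 19 of the 26 alternatives. Rpl24, a large subunit protein near the subunit interface, gave -0.28 ± 0.11 (edgeR adjusted p = 0.0615) and Rpl39, a small protein lining the exit tunnel of the large subunit, -0.27 ± 0.12 (edgeR adjusted p = 0.0988). The number of members called in 2D was 5 without replicate 2, beside 24.9% of all genes called in either direction. It was 8 without replicate 3, beside 31.8%, and 28 without replicate 1 (22 higher and 6 lower), beside 53.8%. It was 10 without D2A1 2D replicate 2 or D2A1 2D replicate 3, beside 39.6% and 44.3%. In each of these fits the members were called less often than all genes.

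In 3D more members were called lower than higher in D2.OR against D2A1. Of the 77 genes, 40 were lower and 1 was higher in edgeR's test, where 26.1% of all genes were lower and 27.7% higher. The median log2 fold change was -0.38 (range -0.90 to 0.48) beside 0.00 for all genes, and 71 of 77 were below 0. Within batches the median was -0.48, -0.38 and -0.27, and 65 of the 77 were below 0 in every batch, as were 39.0% of all genes. With only 2 replicates of each group, 10 members were called without replicate 2, all lower, beside 31.0% of all genes in either direction. Without replicate 3 the number was 26, all lower, beside 35.2%, and without replicate 1 it was 47, beside 56.9%. Without replicate 2 the members were thus called less often than all genes. The median was -0.26 without D2.OR 3D replicate 1. Library totals alone gave 50 lower and none higher, beside 55.4% of all genes called in either direction. The 10 proliferation markers had a median of -0.77 in this comparison, with 5 called lower, and their part in the result was not tested.

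Rpl39, Rpl34 and Rpl32 had the lowest values. Rpl39 read 1732, 1985 and 1856 TPM in D2A1 3D and 956, 1039 and 1090 TPM in D2.OR 3D, a log2 fold change of -0.90 ± 0.12 (edgeR adjusted p = 0.000315). Rpl34 read 3137, 4043 and 3928 TPM in D2A1 3D and 1910, 2285 and 2369 TPM in D2.OR 3D, or -0.81 ± 0.12 (edgeR adjusted p = 0.000395). Rpl32, often used as a reference gene, read 3296, 3598 and 3757 TPM against 1755, 2184 and 2373 TPM, or -0.81 ± 0.13 (edgeR adjusted p = 0.000703). The groups did not overlap in any of the 3, and D2.OR 3D lay wholly below D2A1 3D in 32 of the 77 members and in 30.2% of all genes. Rps6, the substrate of S6 kinase downstream of mTOR, was lower by a log2 fold change of -0.63 ± 0.13 (edgeR adjusted p = 0.00380). Rpl5 with -0.46 ± 0.12 (edgeR adjusted p = 0.0117) and Rpl11 with -0.60 ± 0.16 (edgeR adjusted p = 0.0108) were both lower.

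On chromosome 10 the 4 members had a median of 0.13 in 3D, beside 0.57 for the other genes. Rps12 was the only gene called higher in D2.OR, with 0.48 ± 0.15 (edgeR adjusted p = 0.0204) and 1739, 1950 and 2038 TPM in D2A1 3D against 2144, 2986 and 3161 TPM in D2.OR 3D. This call was lost with library totals alone, without replicate 2 or replicate 3 of every group, and without any single library of the 2 groups other than D2.OR 3D replicate 1, and the highest edgeR adjusted p among these was 0.166. Rps15 gave 0.14 ± 0.13 (edgeR adjusted p = 0.416). Across the 19 chromosomes r was 0.787 and rho 0.782 in 3D (r = 0.722 without chromosome 10), again as a description. With the median of the other genes of its chromosome taken off, 76 of 77 members were below 0 in 3D, with a median of -0.39, and the SD fell from 0.27 to 0.18. Rpl35a, whose reads are shared with pseudogenes, was the one member above 0, at 0.15. This centring was chosen after the values were seen.

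**Figure D5:**
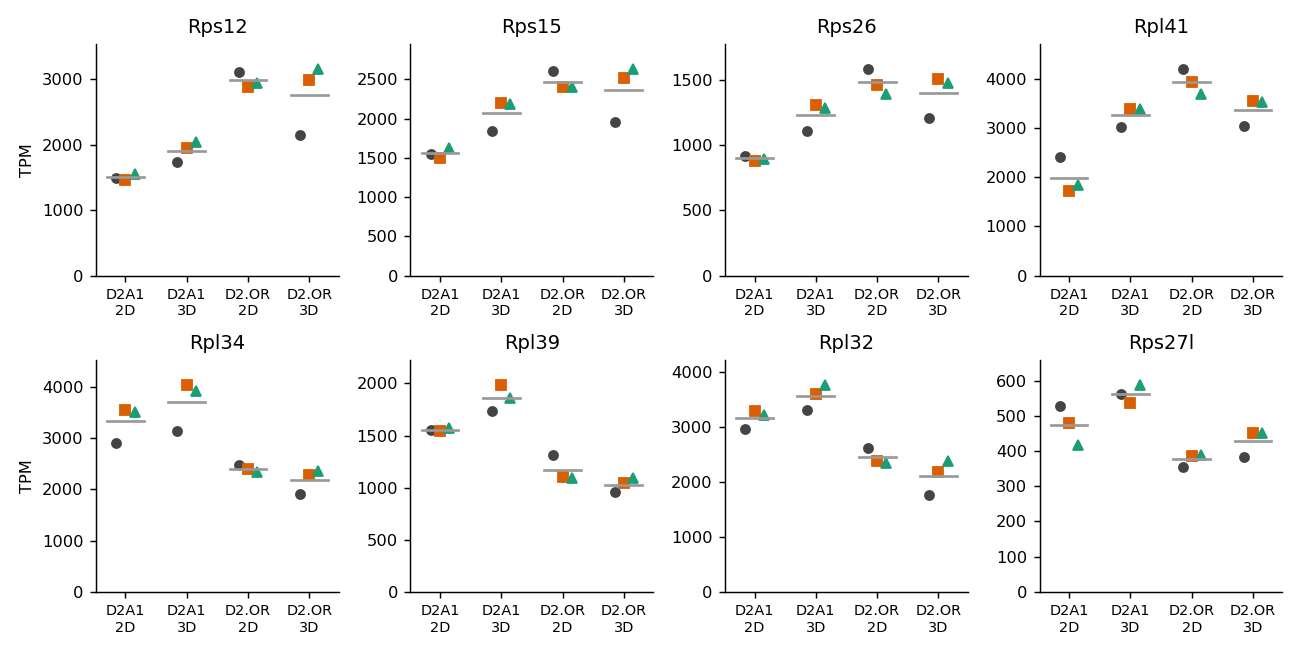
TPM of 8 ribosomal protein genes by group, one point per library (circle, batch 1; square, batch 2; triangle, batch 3) and a grey bar for the mean of 3 libraries; y axes start at 0. The upper row holds the chromosome 10 genes, which are lowest in D2A1 2D, and Rpl34, Rpl39 and Rpl32 in the lower row are higher in both D2A1 groups than in both D2.OR groups.

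Start regions are shown for the 4 genes of chromosome 10, which had the highest values between the lines in 2D, for Rps6, Rpl13a and Rpl38 as members with a pyrimidine run at the start, and for Rps27 and its paralog Rps27l. The sequences are from RefSeq on GRCm38.p6, run 5′ to 3′ on the transcribed strand from 35 bases before to 25 bases after the annotated start, and the capitals mark unbroken runs of at least 8 C or T.
Rps12 (chr10:23787185-23787244, minus strand): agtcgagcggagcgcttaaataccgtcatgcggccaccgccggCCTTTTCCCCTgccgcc
Rps15 (chr10:80292396-80292455, plus strand): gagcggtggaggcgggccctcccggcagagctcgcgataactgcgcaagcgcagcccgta
Rps26 (chr10:128626482-128626541, minus strand): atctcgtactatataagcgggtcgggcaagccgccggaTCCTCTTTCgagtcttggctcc
Rpl41 (chr10:128549144-128549203, minus strand): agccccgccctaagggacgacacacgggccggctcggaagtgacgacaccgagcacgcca
Rps6 (chr4:86857343-86857402, minus strand): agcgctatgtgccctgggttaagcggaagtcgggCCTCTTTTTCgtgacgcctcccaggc
Rpl13a (chr7:45128721-45128780, minus strand): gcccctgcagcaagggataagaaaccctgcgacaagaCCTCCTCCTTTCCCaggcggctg
Rpl38 (chr11:114668545-114668604, plus strand): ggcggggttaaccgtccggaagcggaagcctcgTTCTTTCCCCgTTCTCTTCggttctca
Rps27 (chr3:90213624-90213683, minus strand): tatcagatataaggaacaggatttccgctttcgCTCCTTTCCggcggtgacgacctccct
Rps27l (chr9:66946051-66946110, plus strand): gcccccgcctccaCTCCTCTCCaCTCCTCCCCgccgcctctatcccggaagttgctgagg

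A pyrimidine run of this length stood in 31 of the 60 members with a RefSeq window (51.7%), beside 23.8% of all 32851 windows of the same span. The letters CCGGAAG, the core bound by Ets factors such as GABP, stood on either strand within 250 bases before to 50 after the start in 24 of 60 members (40.0%) and in 8.86% of all windows. CTTTCC on the transcribed strand stood near the start in 11 of 60 members (18.3%) and in 2.91% of all windows, and TATAAA in 3 of 60 (5.0%) and in 2.56%. The annotated start lay more than 20 bases from the gene start of the files in 32 of the 60, all 4 of chromosome 10 among them, so a different start would give other letters. Of the 4 chromosome 10 genes, Rps12 and Rps26 held 1 run each and Rps15 and Rpl41 none.

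Small subunit mRNAs made up a larger part of the total in D2.OR. Of the members' summed TPM, the small subunit genes held 38.1% ± 0.0857 (SD, n = 3) in D2A1 2D and 40.5% ± 0.385 in D2.OR 2D, with ranges of 38.0% to 38.2% and 40.1% to 40.9%. In 3D they held 39.3% ± 0.815 in D2A1 and 40.9% ± 1.08 in D2.OR, with ranges of 38.4% to 39.9% and 39.7% to 41.6%. The 2D groups did not overlap. The 3D groups did, but within each batch the D2.OR 3D share was the higher one, at 39.7%, 41.5% and 41.6% in batches 1, 2 and 3 against 38.4%, 39.9% and 39.7% in D2A1 3D.

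In 2D, 10 of 31 small subunit genes (32.3%) were called higher in D2.OR and none lower, against 7 of 46 (15.2%) higher and 1 lower for the large subunit and 25.4% of all genes higher, with a median log2 fold change of 0.24 and 0.06. In 3D, 14 small subunit genes (45.2%) were lower and 1 higher, against 26 (56.5%) lower and none higher for the large subunit and 26.1% of all genes lower, with a median of -0.35 and -0.43. Of the 4 chromosome 10 genes, 3 are small subunit genes. With the chromosome medians taken off, the medians of the small and large subunit in 2D were 0.19 and 0.13, and in 3D -0.39 and -0.42. For 3D against 2D, the small and the large subunit genes had a median of 0.43 and 0.37 in D2A1, -0.16 and -0.18 in D2.OR, and -0.61 and -0.53 in the interaction. The small subunit share of the TPM was higher in 3D than in 2D in every batch of D2A1, whose 2 groups did not overlap, but in D2.OR it was lower in batch 1 and higher in batches 2 and 3, and the groups overlapped. The difference between the subunits has no test here.

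Of the 4 members with the suffix l, Rps27l was the only one that passed the filter on low counts. Rps27l, a target of p53 in other cells, had a mean of 460.8 TPM over the 12 libraries and Rps27 one of 3028 TPM. Rps27l held 14.2% ± 2.89 (SD, n = 3) of the TPM of the pair in D2A1 2D, 13.5% ± 2.69 in D2A1 3D, 11.9% ± 1.5 in D2.OR 2D and 13.8% ± 1.04 in D2.OR 3D, and all 4 ranges overlapped. Its level in batches 1, 2 and 3 was 529, 480 and 417 TPM in D2A1 2D, and 562, 536 and 589 TPM in D2A1 3D. In D2.OR it was 354, 387 and 389 TPM in 2D, and 384, 451 and 453 TPM in 3D. In 3D both genes were lower in D2.OR, Rps27l by a log2 fold change of -0.44 ± 0.12 (edgeR adjusted p = 0.0142) and Rps27 by -0.52 ± 0.15 (edgeR adjusted p = 0.0160). In 2D neither was called.

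A further 7 ribosomal proteins outside the symbol rule were followed beside the members, since they complete the ribosome or are paralogs of it. Rpl22l1, the paralog of Rpl22, was higher in D2.OR in 2D (log2 fold change 0.74 ± 0.11, edgeR adjusted p = 0.000587) and in 3D (0.47 ± 0.11, edgeR adjusted p = 0.00638), whereas Rpl22 gave -0.23 ± 0.12 in 2D (edgeR adjusted p = 0.143) and was lower in 3D (-0.60 ± 0.12, edgeR adjusted p = 0.00264). Rpl22l1 held 18.9% to 25.9% of the TPM of the pair in D2A1 2D and 17.5% to 22.2% in D2A1 3D. In D2.OR it held 33.7% to 37.1% in 2D and 34.7% to 37.1% in 3D, above every D2A1 library. Rpl36al held 31.7% to 34.4% of the TPM of its pair with Rpl36a over the 6 D2A1 libraries and 40.2% to 44.6% over the 6 D2.OR libraries. Rpl36a was lower in D2.OR in 3D (-0.73 ± 0.16, edgeR adjusted p = 0.00390). Rpl36al was not called in 2D (0.40 ± 0.15, edgeR adjusted p = 0.0537) or in 3D (-0.22 ± 0.15, edgeR adjusted p = 0.234). For Rpl7l1 the direction was the other one. It held 5.28% to 6.79% of the TPM of its pair with Rpl7 in D2A1 2D and 4.12% to 4.68% in D2.OR 2D, and 5.66% to 6.41% in D2A1 3D and 4.83% to 5.93% in D2.OR 3D. Rpl7l1 was lower in D2.OR in 2D (-0.40 ± 0.11, edgeR adjusted p = 0.0170) and in 3D (-0.61 ± 0.11, edgeR adjusted p = 0.00195).

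Rack1, a signaling scaffold on the small subunit, gave 0.01 ± 0.12 in 2D and was lower in 3D (-0.67 ± 0.12, edgeR adjusted p = 0.00134). All 7 had an interaction term below 0, with a median of -0.48 and none called.

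Genes that build ribosomes and translation factors were followed for comparison. Of 66 ribosome biogenesis genes tested, 1 was higher and 30 were lower in 2D (1.52% and 45.5%, beside 25.4% and 24.4% of all genes), with a median log2 fold change of -0.41. Within batches the 2D median was -0.63, -0.62 and 0.06, so batch 3 did not share the direction. In 3D, 1 was higher and 38 were lower (1.52% and 57.6%, beside 27.7% and 26.1% of all genes), with a median of -0.56 and within-batch medians of -0.67, -0.44 and -0.61. Nop10, a subunit of the box H/ACA particles that modify ribosomal RNA, was lower in 2D (-1.13 ± 0.15, edgeR adjusted p = 0.000303), and Rrp1 was higher (0.67 ± 0.08, edgeR adjusted p = 0.000186). Of 48 translation factors, 4 were higher and 10 lower in 2D (8.33% and 20.8%, both below the shares of all genes), with a median of -0.06 and within-batch medians of -0.04, -0.16 and 0.06. In 3D, 2 were higher and 20 lower (4.17% and 41.7%), with a median of -0.24. Eif1ax, an initiation factor, was lower in 2D (-0.97 ± 0.09, edgeR adjusted p = 3.84e-05). Eef2, the factor that moves the ribosome along the mRNA, was higher (1.08 ± 0.13, edgeR adjusted p = 0.000212) and lies on chromosome 10.

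No culture effect was called in either list. For the ribosome biogenesis genes the median log2 fold change of 3D against 2D was 0.28 in D2A1 and 0.13 in D2.OR, and the interaction had a median of -0.13 with 48 of 66 below 0. Within batches the D2A1 median was 0.00 (0.0008), 0.11 and 0.76 and the interaction median 0.04, 0.15 and -0.67, so the negative direction of the interaction came from batch 3 alone. For the 48 translation factors the medians were 0.16, -0.08 and -0.24. The edgeR test called none of either list in these 3 comparisons, and at an unadjusted p below 0.05 there were 16, 4 and 3 biogenesis genes (24.2%, 6.06% and 4.55%) and 17, 7 and 10 translation factors (35.4%, 14.6% and 20.8%), beside 31.4%, 17.6% and 17.8% of all genes. Eif3i, a subunit of the factor that brings mRNA to the small subunit, had the smallest p of the factors in the interaction (-0.60 ± 0.14, edgeR adjusted p = 0.122), and Polr1d, a subunit of RNA polymerases I and III, that of the biogenesis genes (-0.52 ± 0.16, edgeR adjusted p = 0.170).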

How the data were processed

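RNA from 12 libraries of 2 mouse mammary tumor cell lines was sequenced. Per the labels and the study's methods, the authors checked reads with FastQC 0.11.4, trimmed them with Trimmomatic 0.32, aligned them with STAR 2.5.3 to GRCm38 with GENCODE M15 and quantified genes with RSEM 1.3.0. The deposited expected counts were rounded to whole numbers for the tests, and the deposited TPM values (scaled by RSEM to the same total in each library) were used as levels. The deposited FPKM values were not used.

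Libraries held 47589611 to 73325069 expected counts. Genes were kept by filterByExpr, scaled by TMM and fitted with edgeR 4.0.16 (R 4.3.3, quasi-likelihood, group and batch as terms, residual df 6), with Benjamini-Hochberg adjustment over 16823 genes and a call at an adjusted p below 0.05. Batch is the replicate number in the labels. Same-numbered libraries deviated together with a correlation of 0.076 to 0.51 over 18 pairs. The alternatives used DESeq2 1.42.0 and limma 3.58.1, and the scripts were tested on simulated data.

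Named genes were, per comparison of line and culture, the 3 members with the largest and the 3 with the smallest log2 fold change, the 3 with the smallest p in the interaction and batch comparisons, the 3 highest and 3 lowest by mean TPM over the 12 libraries, the paralogs by the suffix l, the members that failed the filter, and from the other lists the 2 genes with the smallest p in 2D and in the interaction. Rps6, Rpl5, Rpl35a and, where these rules do not name them, members shown with values beside these were picked once the values were known. The members and lists were chosen with earlier results of these data known. Sequences are from RefSeq, on GRCm38.p6, with a window for 60 of the 80 members. Some genes that these rules name are not reported here.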

Additional observations from a re-analysis of the deposited data

Results flagged for a closer look

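In 9 ribosomal protein genes named in the text, 3D was above 2D in D2A1 and below 2D in D2.OR in all 3 batches, on the scale of log2 CPM after TMM scaling. The interaction term was -1.13 for Rpl41, -0.73 for Rps14, -0.68 for Rps4x, -0.63 for Rpl39, -0.60 for Rpl32, -0.51 for Rpl34, -0.48 for Rpl5, -0.48 for Rps24 and -0.37 for Rpl22, and none of them passed edgeR's interaction test after Benjamini-Hochberg adjustment. In TPM, Rpl41, Rps14, Rps4x and Rpl39 had this pattern in all 3 batches. Rps24 and Rpl5 were higher in 3D in only 1 of 3 batches of D2A1 in TPM, and Rpl32, Rpl34 and Rpl22 were lower in 3D in only 2 of 3 batches of D2.OR. On the log2 CPM scale the pattern was seen in 19 of the 77 members (24.7%) and in 3.59% of all genes tested. The groups hold 3 libraries each, so single libraries were not tested for standing apart.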

How the results depend on the processing

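The number of members called turned on single libraries and on the tool, as did that of all genes. Leaving libraries out gave 5 to 28 calls in 2D, 10 to 47 in 3D and 0 to 1 for culture in D2.OR. It gave 0 to 65 for culture in D2A1, 0 to 46 for the interaction and 0 to 18 for batch. The same fits called 24.9% to 53.8% of all genes in 2D, 31.0% to 59.5% in 3D and 0.0% to 8.38% for culture in D2.OR. They called 0.0% to 36.3% for culture in D2A1, 0.0% to 17.8% for the interaction and 7.61% to 20.6% for batch. DESeq2 called 2 for culture in D2.OR, 43 in D2A1, 20 for the interaction and 12 for batch, where edgeR called 0, 3, 0 and 1. Of all genes, DESeq2 called 6.98%, 20.9%, 5.61% and 19.9% in these comparisons, and edgeR 1.62%, 3.48%, 0.0238% and 13.3%. For culture in D2A1, limma called 1 under either pseudocount, both other filters on low counts 6, and a fit of the 6 libraries alone 0. Of all genes, limma called 4.52% and 6.75%, the filters 3.75% and 5.98%, and the fit of the 6 libraries 0.0981%. No filter gave 1 for the interaction and 2 for batch, for which limma with a pseudocount of 0.1 gave 2 and DESeq2's size factors gave 3. The shares of all genes called were 0.322%, 7.17%, 11.5% and 13.3%. The replicate numbers pair the libraries by batch. Without the block, edgeR called 15 members in 2D, 37 in 3D and 0 for culture in D2.OR, for culture in D2A1 and for the interaction. Of all genes it called 43.9%, 47.8%, 0.119%, 0.309% and 0.0% in these comparisons. The log2 ratio of the summed level moved from 0.07 to 0.20 in 2D and from 0.24 to 0.35 for culture in D2A1 with RPKM scaled by TMM. The cause of these changes was not tested.

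The median over the members in 2D changed sign to -0.0132 with limma (both pseudocounts) and to -0.0285 with library totals. Library totals also lowered the median of all genes, to below that of the members. Values near 0 also changed sign. With libraries left out, Rpl37a in D2.OR ranged from -0.1076 to 0.2742 and was below 0 in 5 of these settings. For culture in D2A1, Rpl3 ranged from -0.1739 to 0.03918, above 0 without replicate 2 or D2A1 2D replicate 2, and Rps24 was -0.02174 and -0.02175 with limma. The centring on chromosome medians was chosen after seeing the data. Rpl3l, Rpl10l and Rpl39l were the only members with too few reads to be tested.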
